A study of Mus musculus with 12 samples.

Results

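The expression of 8 genes of the Nodal pathway was followed in mouse gastruloids: the ligands *Nodal* and *Gdf3*, the EGF-CFC co-receptors *Cfc1* (Cryptic) and *Tdgf1* (Cripto), the secreted antagonists *Lefty1*, *Lefty2* and *Cer1*, and the nuclear effector *Foxh1*. They are 8 of the 55141 genes in the count table, each matched by its symbol in the table of FPKM values and taken from the counts by its Ensembl identifier. The genes were chosen by values measured in these same libraries, since earlier results of the comparisons between embedding times were known when the list was drawn up. Their own levels and fold changes are therefore given as a description, with no p-value for any of them. Tests are given for other genes of the pathway and for markers of cell types. Those lists were also drawn up with earlier results of these data known, so their p-values are not independent support. Where no gene was called, the number of the 8 with an unadjusted p below 0.05 is printed beside that over all genes and is not read as support.

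Gastruloids are embryonic organoids grown from stem cells, here of 129/SVEV mouse background. In all groups, 300 cells were seeded per well, 3 µM of the Wnt agonist CHIR99021 was present from 48 h for 24 h, and RNA was taken at 120 h after seeding. Each library was made from about 30 gastruloids pooled from the same condition. The groups differed in the time at which gastruloids were embedded in a dextran hydrogel, 72 h or 96 h after seeding, and in the concentration of the gel, 1.0 mM or 1.5 mM, which left the tissue in the gel for a longer time in the 72 h groups. There were 3 libraries in each of the 4 groups, 12 in all, described by the study as biological replicates. Gastruloids grown without a gel were not analysed here, so every group carried the embedding procedure and its release by dextranase. Total counts ran from 23011791 to 27609422 per library, with a median of 25274302. The rRNA gene *CT010467.1* took 0.207% to 2.67% of the counts in 10 libraries, 6.12% in replicate 1 of the 72 h, 1.5 mM group and 4.21% in replicate 2 of the 96 h, 1.5 mM group. Mitochondrial genes took 1.68% to 2.60% at 72 h and 2.37% to 2.89% at 96 h in 1.0 mM gels, and 1.94% to 2.15% against 2.46% to 3.02%, without overlap, in 1.5 mM gels. The part of either share in the results was not tested. Levels are given as CPM (counts scaled to a common library total, after TMM scaling of library sizes) and, where genes are compared with each other, as FPKM, which also divides by transcript length.

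Nodal is a TGF-β family ligand that binds activin receptors together with an EGF-CFC co-receptor. The receptors phosphorylate Smad2 and Smad3, which enter the nucleus with Smad4 and act with FoxH1 on target genes. *Nodal* itself and its antagonists *Lefty1* and *Lefty2* are among these targets, so the pathway carries both positive and negative feedback. In the embryo, Nodal signaling maintains the epiblast, induces mesendoderm during gastrulation and later patterns the left-right axis.

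*Lefty1* (mm10 chr1:180935022-180938400) and *Lefty2* (chr1:180893108-180899103) are neighboring paralogs with coding sequences of 1107 bases each in the GENCODE annotation of the same genome, of which 1017 positions (91.9%) are identical when aligned end to end.

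Of all windows of the read length (75 bases) in the transcripts of *Lefty1*, 11.7% also occurred in *Lefty2*, and 7.77% of the windows of *Lefty2* occurred in *Lefty1*. The reads of one *Lefty* gene can therefore be split or lost in counting, and the level of each is uncertain to that extent. For *Tdgf1*, 5.99% of windows also occurred in the pseudogene *Tdgf1-ps1*, and for *Cfc1*, 22.4% lay opposite *Prss40*, which received 1 count in all 12 libraries together. *Nodal*, *Gdf3* and *Foxh1* shared no window with another gene, and *Cer1* shared 0.12%.

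Promoter sequences from RefSeq (GRCm38.p6) were found for 4 of the 8 genes, *Nodal*, *Cfc1*, *Cer1* and *Tdgf1*. The 250 bases before the start of *Nodal* (chr10:61417722-61417971, + strand) and of *Cfc1* (chr1:34535398-34535647, + strand) are shown because these genes had opposite directions between embedding times, and those of *Cer1* (chr4:82885152-82885401, − strand) because its replicates differed widely, with a coefficient of variation of up to 71.4%. Capitals mark a match to the SMAD box CAGAC on either strand.

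Nodal promoter: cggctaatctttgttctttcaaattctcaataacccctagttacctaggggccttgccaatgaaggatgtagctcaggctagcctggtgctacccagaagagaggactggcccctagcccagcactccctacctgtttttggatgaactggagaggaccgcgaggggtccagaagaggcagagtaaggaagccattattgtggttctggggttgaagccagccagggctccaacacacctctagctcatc
Cfc1 promoter: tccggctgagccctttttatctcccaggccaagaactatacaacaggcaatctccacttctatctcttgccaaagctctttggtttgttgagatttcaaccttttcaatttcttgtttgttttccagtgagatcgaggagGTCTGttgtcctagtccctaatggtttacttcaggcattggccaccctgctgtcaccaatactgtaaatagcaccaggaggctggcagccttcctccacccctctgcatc
Cer1 promoter: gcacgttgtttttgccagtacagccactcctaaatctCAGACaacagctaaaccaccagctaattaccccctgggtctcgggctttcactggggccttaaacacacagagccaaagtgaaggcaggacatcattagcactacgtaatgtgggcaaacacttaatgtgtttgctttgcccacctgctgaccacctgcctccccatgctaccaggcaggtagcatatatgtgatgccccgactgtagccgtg

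The SMAD box occurred 1 time each in the windows of *Cfc1*, *Cer1* and *Tdgf1*, at 110, 213 and 113 bases before the start, and in 42.2% of all 32851 promoter windows of that length. The FOXH1 site AATCCACA (0.718% of all windows), the T-box sequence TCACACC (3.33%), the TCF/LEF sequence CTTTGAT (3.21%) and the TATA box TATAAA (12.4%) had no match in these 4 windows. All were searched on both strands, and matches of different motifs were allowed to overlap. A match is a description of the letters only.

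At 120 h the 8 genes covered a wide range of levels. By mean FPKM, *Foxh1* was the highest in every group, at 124 and 101 in the 72 h groups (1.0 mM and 1.5 mM) and at 40.6 and 42.1 in the 96 h groups. *Cfc1* and *Cer1* followed, with overlapping ranges in every group. *Cfc1* was at 64.9 and 51.9 FPKM after embedding at 72 h and at 10.6 and 19.4 after embedding at 96 h. *Tdgf1* lay between 2.55 and 4.73 FPKM in the 4 groups.

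The remaining genes changed places with embedding time. After embedding at 72 h, *Nodal* (0.364 and 0.296 FPKM), *Lefty1* (0.167 and 0.241), *Gdf3* (0.153 and 0.138) and *Lefty2* (0.0528 and 0.0661) all lay below *Tdgf1* without overlap. In the 1.5 mM group each of these 4 overlapped with its neighbor in the order, whereas in the 1.0 mM group *Nodal* did not overlap with *Lefty1*. After embedding at 96 h, *Lefty1* reached 5.17 FPKM in 1.0 mM gels, above *Tdgf1* and overlapping with *Cfc1*, and 2.41 in 1.5 mM gels, where it overlapped with *Tdgf1*. *Nodal* then stood at 1.44 and 1.07 FPKM, and *Lefty2* (0.790 and 0.554) and *Gdf3* (0.744 and 0.567) overlapped at the low end.

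**Figure D1:**
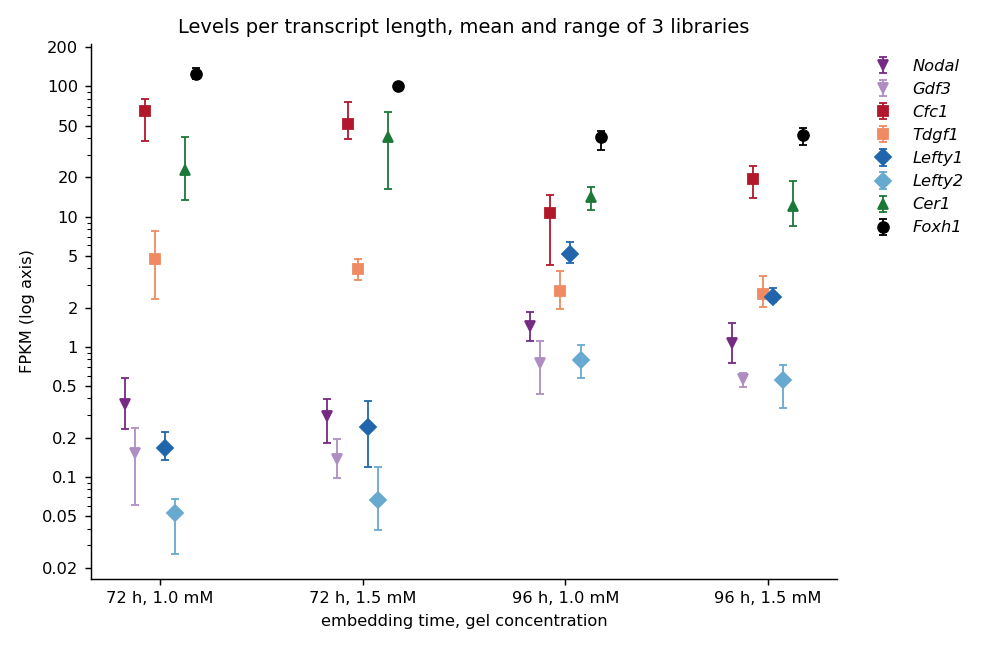
Mean FPKM (log axis) of the 8 genes in the 4 groups, with bars from the lowest to the highest of 3 libraries. *Foxh1* is at the top in every group, and *Lefty1* moves from 0.167 and 0.241 FPKM after embedding at 72 h to 5.17 and 2.41 after embedding at 96 h.

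In 1.0 mM gels, 6 of the 8 genes were called between embedding times, 2 of them higher (*Cfc1*, *Foxh1*) and 4 lower (*Nodal*, *Gdf3*, *Lefty1*, *Lefty2*) after embedding at 72 h. A call here is an edgeR adjusted p below 0.05 over all genes tested and a log2 fold change beyond 1 in either direction. Over all 15763 genes tested, 2.61% were called higher at 72 h and 1.69% lower. In 1.5 mM gels, 7 of the 8 were called, 3 higher (*Cfc1*, *Cer1*, *Foxh1*) and 4 lower (the same *Nodal*, *Gdf3*, *Lefty1* and *Lefty2*), where 1.61% of all 15683 genes were called higher and 1.57% lower. The values of the embedding times did not overlap for 6 of the 8 genes in either gel, against 28.4% of all genes tested in 1.0 mM and 39.9% in 1.5 mM gels. Because the genes were selected on these contrasts, the counts describe them and no more is read from them. The median log2 fold change over the 8 genes was −0.64 in 1.0 mM and −0.62 in 1.5 mM gels, and over all genes −0.01 in each. In bulk samples such as these, fewer cells of a type and less RNA per cell cannot be told apart.

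**Figure D2:**
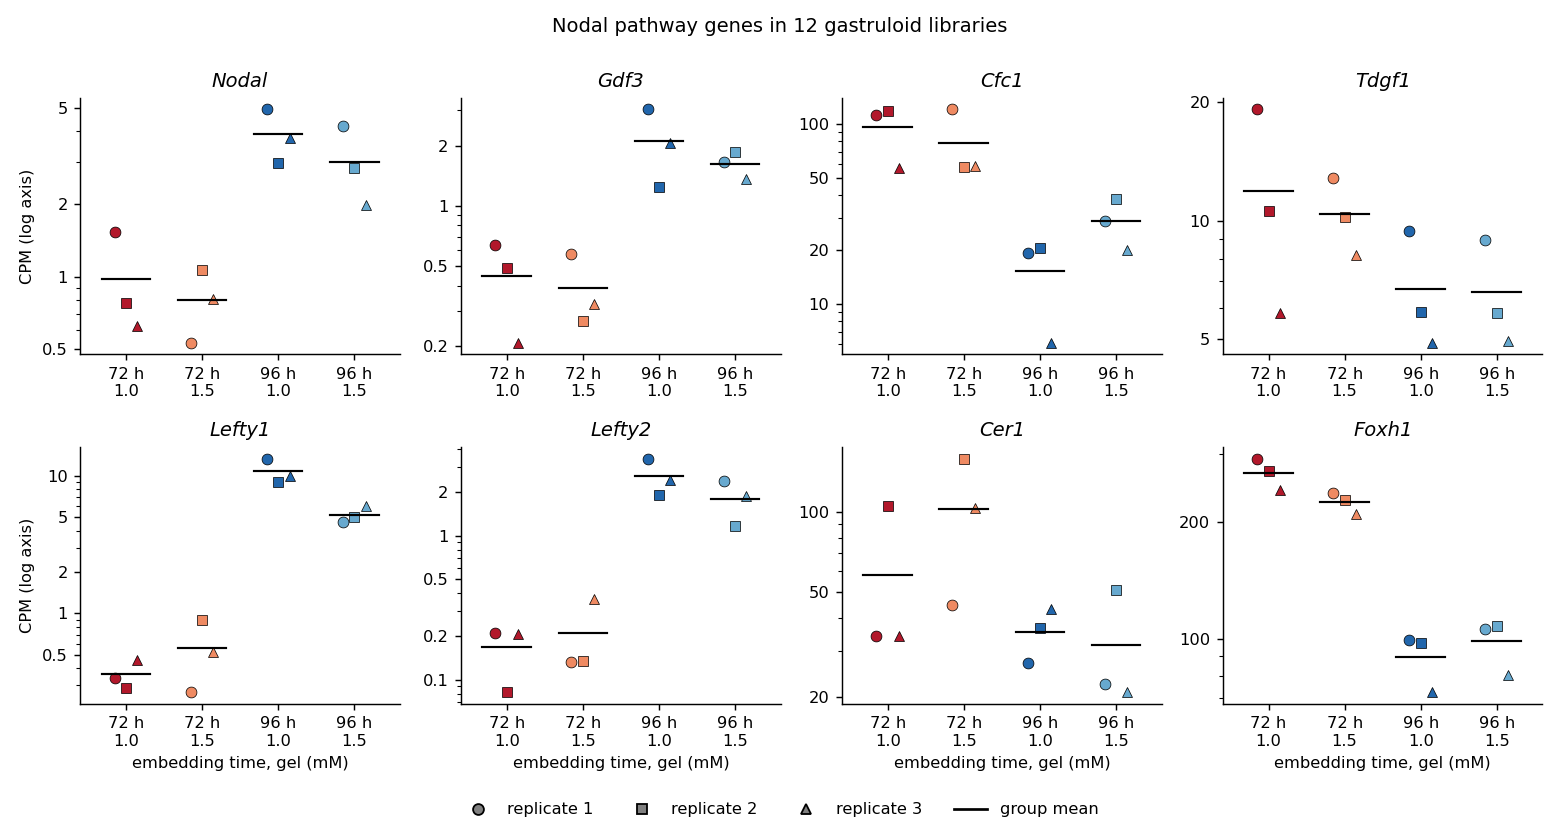
CPM (log axis) of each gene in the 12 libraries, by embedding time and gel, with a symbol for each replicate number and a line at the group mean. The 72 h libraries of *Nodal*, *Gdf3*, *Lefty1* and *Lefty2* all lie below the 96 h libraries of the same gel, those of *Cfc1* and *Foxh1* all lie above, and those of *Tdgf1* and *Cer1* overlap.

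The ligand *Nodal* (chr10:61417972-61425338) had 1.53, 0.776 and 0.624 CPM in the 3 libraries of the 72 h, 1.0 mM group, and 4.94, 2.97 and 3.75 CPM in those embedded at 96 h. The 1.5 mM gels gave 0.533, 1.07 and 0.811 CPM at 72 h and 4.20, 2.81 and 1.99 CPM at 96 h. All 6 libraries embedded at 72 h lay below all 6 embedded at 96 h, and the gels overlapped at each time. The log2 fold change of 72 h against 96 h was −1.99 (SE 0.334) in 1.0 mM and −1.90 (SE 0.350) in 1.5 mM gels, a level 3.97-fold lower in the former. These levels rest on 12 to 36 counts per library at 72 h and 51 to 129 at 96 h.

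*Gdf3* (chr6:122605403-122610087), a TGF-β family ligand of the Vg1 type that can act through the same co-receptors, was the other low ligand. It had 0.636, 0.490 and 0.208 CPM at 72 h and 3.03, 1.24 and 2.06 CPM at 96 h in 1.0 mM gels. With the 1.5 mM gel it had 0.578, 0.267 and 0.324 CPM at 72 h and 1.65, 1.85 and 1.36 CPM at 96 h. Again no 72 h library reached the level of a 96 h library. The log2 fold changes were −2.23 (SE 0.433) and −2.05 (SE 0.341). With limma on log2(FPKM + 0.1) in place of the counts, *Gdf3* was at −1.72 and not called in 1.0 mM gels.

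The co-receptor *Cfc1* (chr1:34535648-34544313) went in the opposite direction to the ligands. In 1.0 mM gels it had 111, 118 and 56.4 CPM at 72 h and 19.1, 20.5 and 6.10 CPM at 96 h. With the denser gel it had 120, 57.2 and 57.9 CPM at 72 h and 28.8, 38.4 and 19.9 CPM at 96 h. The lowest 72 h library exceeded the highest 96 h library. The level at 72 h was 6.29-fold higher in 1.0 mM gels (2.65 on the log2 scale, SE 0.379) and 2.69-fold higher in 1.5 mM gels (1.43, SE 0.308). The call in 1.5 mM gels was lost without replicate 1 of the 72 h group (0.98), the library with 6.12% of its counts in *CT010467.1*, and without replicate 3 of the 96 h group (1.22).

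*Tdgf1* (chr9:110939603-110946158), the other co-receptor and the one used by the epiblast, was not called in either gel. It had 19.2, 10.6 and 5.83 CPM at 72 h and 9.39, 5.86 and 4.89 CPM at 96 h in 1.0 mM gels. The denser gel gave 12.8, 10.2 and 8.19 CPM at 72 h and 8.92, 5.82 and 4.95 CPM at 96 h. The embedding times overlapped in both gels. The log2 fold changes were 0.83 (SE 0.365) and 0.66 (SE 0.237). Without replicate 3 of the 72 h, 1.0 mM group, the value was 1.16 and was called, and without replicate 1 of that group it was 0.30. Per transcript length, *Cfc1* was 9.87 to 19.4 times as high as *Tdgf1* in the 6 libraries embedded at 72 h, and 2.17 to 11.4 times as high in those embedded at 96 h.

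*Lefty1*, an inhibitor that binds Nodal and its co-receptors, showed the widest gap between embedding times among the 8 genes. In 1.0 mM gels it had 0.339, 0.286 and 0.458 CPM at 72 h (8, 7 and 11 counts) and 13.3, 9.11 and 10.0 CPM at 96 h (346, 227 and 272 counts). With the denser gel, of 1.5 mM, it had 0.267, 0.890 and 0.527 CPM at 72 h and 4.61, 5.02 and 6.04 CPM at 96 h. Every 72 h library was at 0.890 CPM or below, and every 96 h library at 4.61 CPM or above. The level was 29.4-fold lower at 72 h in 1.0 mM gels (−4.88 on the log2 scale, SE 0.262) and 9.27-fold lower in 1.5 mM gels (−3.21, SE 0.326).

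*Lefty2*, which acts in the same way and in the embryo marks the left lateral plate mesoderm, followed *Lefty1* at a lower level. In 1.0 mM gels it had 5, 2 and 5 counts at 72 h (0.212, 0.0817 and 0.208 CPM) and 89, 48 and 66 counts at 96 h (3.41, 1.93 and 2.43 CPM). The 1.5 mM libraries had 3, 3 and 9 counts at 72 h (0.133, 0.134 and 0.365 CPM) and 64, 29 and 48 counts at 96 h (2.40, 1.16 and 1.87 CPM). The groups did not overlap in either gel. The log2 fold changes were −3.91 (SE 0.406) and −3.06 (SE 0.456), and the latter was −3.72 without replicate 3 of the 72 h, 1.5 mM group. At so few counts the size of the fold change depended on the scale, with −2.52 and −1.96 by limma on log2(FPKM + 0.1), both still called. *Lefty2* passed the filter on low counts in these comparisons only through its 96 h libraries. In neither gel would the 72 h libraries of *Lefty1* or *Gdf3* alone have met the filter, so both also passed through their 96 h libraries. A gene that passes in this way is selected for a difference, so the calls of these 3 genes support nothing further.

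Set against the ligand per transcript length, *Lefty1* was 0.251 to 0.948 times the level of *Nodal* in the 72 h libraries of 1.0 mM gels and 0.647 to 0.970 times in those of 1.5 mM gels. After embedding at 96 h it was 3.39 to 3.99 times the level of *Nodal* in 1.0 mM gels and 1.43 to 3.78 times in 1.5 mM gels. *Lefty1* was thus below *Nodal* in all 6 libraries embedded at 72 h and above it in all 6 embedded at 96 h. The ratios at 72 h rest on 6 to 20 counts of *Lefty1* and 12 to 36 of *Nodal* per library. In the 72 h, 1.5 mM group the ranges of the genes overlapped, so the order at 72 h is uncertain.

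*Cer1* (chr4:82881751-82885148), a secreted antagonist of Nodal, BMP and Wnt ligands, did not follow the *Lefty* genes. In 1.0 mM gels it had 34.2, 106 and 34.0 CPM at 72 h and 26.9, 36.4 and 43.0 CPM at 96 h, with a single high library at 72 h. The 1.5 mM libraries had 44.6, 159 and 104 CPM at 72 h and 22.4, 51.0 and 20.9 CPM at 96 h. The embedding times overlapped in both gels. The log2 fold change was 0.71 (SE 0.370) and not called in 1.0 mM gels, where it was −0.05 without replicate 2 of the 72 h group. Its value in the 1.5 mM gel was 1.70 (SE 0.445) and called. That call was lost without replicate 2 (1.24) or 3 (1.69) of the 72 h group, without replicate 1 (1.50) or 3 (1.48) of the 96 h group, and with limma on log2(FPKM + 0.1) (1.64).

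*Foxh1* (chr15:76668225-76669948), the transcription factor that brings Smad2 and Smad3 to Nodal target genes, was the most abundant of the 8, with a coefficient of variation between replicates of 6.47% to 16.6% in the 4 groups. In 1.0 mM gels it had 292, 272 and 243 CPM at 72 h and 99.2, 97.6 and 72.6 CPM at 96 h. For 1.5 mM the values were 239, 229 and 210 CPM at 72 h and 106, 108 and 80.6 CPM at 96 h. The 72 h libraries lay far above the 96 h libraries in both gels. The level at 72 h was 3.01-fold higher in 1.0 mM gels (1.59 on the log2 scale, SE 0.121) and 2.29-fold higher in 1.5 mM gels (1.19, SE 0.109), and it was called under every alternative tried. *Kifc2*, which ends next to *Foxh1* on the opposite strand, had 166 to 303 counts per library, against 1976 to 6892 for *Foxh1*.

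Between gel concentrations, none of the 8 genes was called. After embedding at 72 h, 0 of the 7 genes tested and 0 of 15563 genes in all (0%) were called with edgeR, while 1 of the 7 and 1074 genes in all had an unadjusted p below 0.05. *Lefty2* had too few counts to be tested there. *Foxh1* had all 1.5 mM libraries below all 1.0 mM libraries (log2 fold change −0.25, SE 0.0916). The share of all genes without overlap between gels was not computed, so nothing is read from this gap. *Cer1* was at 0.82 (SE 0.486) and *Lefty1* at 0.63 (SE 0.481), each with overlapping gels.

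After embedding at 96 h, 0 of the 8 genes and 0 of 15861 genes in all (0%) were called with edgeR between gels, while 2 of the 8 and 1578 genes in all had an unadjusted p below 0.05. *Lefty1* was lower in all 3 libraries of 1.5 mM gels (4.61 to 6.04 CPM) than in all 3 of 1.0 mM gels (9.11 to 13.3 CPM), a log2 fold change of −1.05 (SE 0.170). It was called by DESeq2 (−1.04), with a replicate block (−1.04), without the filter on low counts (−1.05) and without replicate 3 of the 96 h, 1.5 mM group (−1.16). The share of all genes without overlap between these gels was not computed either. *Cfc1* was at 0.93 (SE 0.340) with overlapping gels, and at 1.01 and called with the replicate block. *Nodal* (−0.37, SE 0.270), *Gdf3* (−0.38, SE 0.305) and *Lefty2* (−0.51, SE 0.293) were lower on average in the 1.5 mM gel, with overlap.

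**Figure D3:**
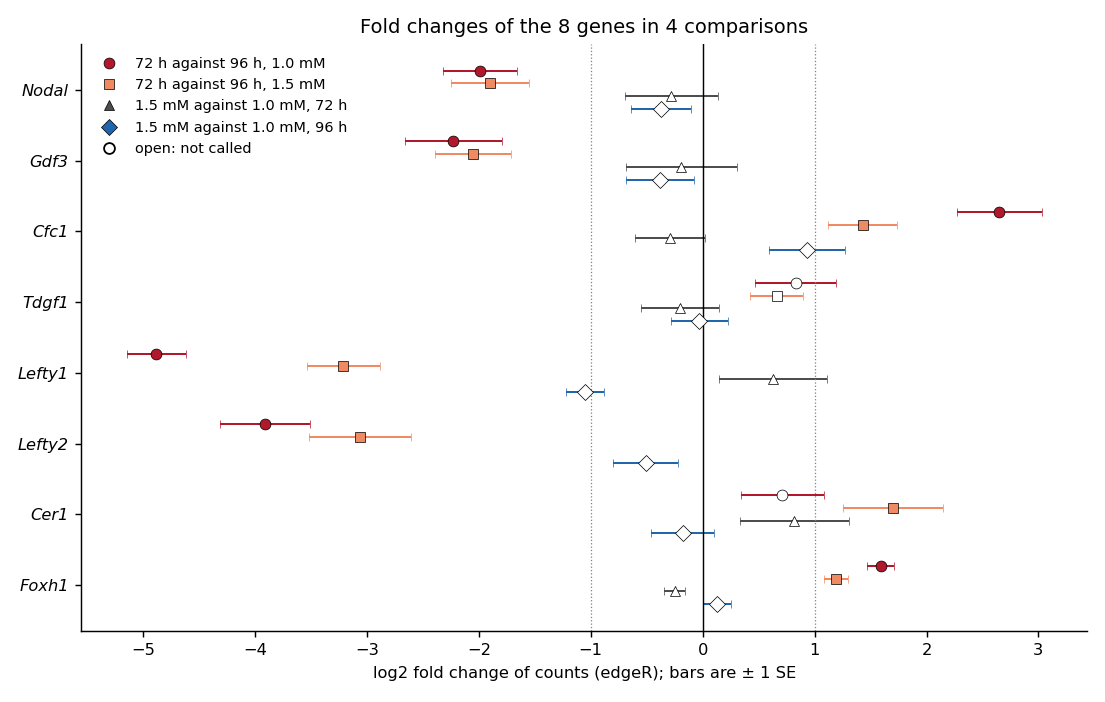
Log2 fold change of counts with bars of ± 1 SE for each gene (rows) in 4 comparisons, filled where called and open where not; *Lefty2* was not tested between gels at 72 h. Fold changes between embedding times reach −4.88 for *Lefty1* and 2.65 for *Cfc1*, and all symbols of the comparisons between gels are open.

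The difference of the time effect between gels was fitted as an interaction over all 12 libraries. It called 0 of the 8 genes and 0 of 16388 genes in all (0%), while 3 of the 8 and 708 genes in all had an unadjusted p below 0.05. The effect of embedding at 72 h was further below zero in 1.0 mM gels for *Lefty1* (difference −1.68, SE 0.471) and further above zero for *Cfc1* (1.22, SE 0.560) and *Foxh1* (0.39, SE 0.176). For *Nodal*, *Gdf3* and *Tdgf1* the difference was within its standard error (−0.10, −0.19 and 0.16). Without the filter on low counts, *Cfc1* (1.23) and *Lefty1* (−1.66) were called.

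The other genes of the pathway were 41 further genes, of which 36 had enough counts to be tested in each comparison of embedding times. After embedding at 72 h, 1 of the 36 rose and 2 fell in 1.0 mM gels, and 1 rose and 2 fell in 1.5 mM gels, the same 3 genes in both. Over all genes tested, 2.61% were called higher and 1.69% lower at 72 h in 1.0 mM gels. The shares in 1.5 mM gels were 1.61% and 1.57%. With no fold-change threshold, 8 genes (5 higher and 3 lower) passed the adjusted p in 1.0 mM gels and 12 (8 higher and 4 lower) in 1.5 mM gels. The numbers of all genes that passed without that threshold are given with the alternatives below. The median log2 fold change of the 36 was 0.13 and 0.10.

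Among the activin-type ligands only *Gdf11* was tested, at −0.14 (SE 0.134) and 0.01 (SE 0.0864). *Inhba* and *Inhbb*, the subunits of activins, averaged at most 4 counts per library in any group, and *Gdf1*, a partner of Nodal, was listed at 0 in every library. In the GENCODE annotation *Gdf1* lies wholly inside *Cers1* on the same strand, so reads from it can have been counted for *Cers1* or dropped, and the 0 does not show that it was not expressed. Of the receptors, the type I receptor *Acvr1b* had a log2 fold change of 0.16 (SE 0.0949) and 0.06 (SE 0.0837), and *Acvr1c* was too low to test. The type II receptors *Acvr2a* (0.02 and 0.15) and *Acvr2b* (0.33 and 0.69) were not called. *Acvr2b* passed the adjusted p in 1.5 mM gels (0.00668 with edgeR) at a log2 fold change below 1. The convertases that cleave the Nodal precursor, *Furin* (0.50 and 0.33) and *Pcsk6* (−0.18 and −0.69), were not called, although *Furin* in 1.0 mM gels (0.00888 with edgeR) and *Pcsk6* in 1.5 mM gels (0.0349) passed the adjusted p.

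The signal transducers *Smad2* (0.14 and 0.24), *Smad3* (0.12 and 0.30) and *Smad4* (0.16 and 0.19) and the cofactors *Trim33* and *Med15* were not called. In 1.5 mM gels *Smad2*, *Smad3* and *Smad4* passed the adjusted p (0.0245, 0.0251 and 0.0414 with edgeR) and were higher at 72 h without overlap, at log2 fold changes below 1. *Smad2* had 94.0 to 111 CPM in the 1.0 mM libraries embedded at 72 h and 91.5 to 95.7 CPM in those embedded at 96 h, which overlapped. For 1.5 mM it had 99.0 to 107 CPM at 72 h and 86.1 to 88.3 CPM at 96 h, which did not.

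Among 12 target genes, *Lhx1*, a LIM homeobox gene of the organizer and early mesoderm, rose, with changes given on the log2 scale. It had 40.6, 49.7 and 44.5 CPM at 72 h and 18.1, 14.1 and 11.8 CPM at 96 h in 1.0 mM gels (1.62, SE 0.149, edgeR adjusted p = 1.34e-04). The 1.5 mM libraries had 36.4, 54.9 and 49.8 CPM at 72 h and 21.0, 18.7 and 17.2 CPM at 96 h (1.30, SE 0.143, adjusted p = 0.00149). Every 72 h library lay above every 96 h library of the same gel.

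The target genes of the primitive streak and endoderm were not called: *Eomes* (log2 fold change 0.31 and −0.25), *Mixl1* (−0.47 and −0.56), *Gsc* (−0.48 and −0.47), *Foxa2* (0.61 and 0.66) and *Sox17* (−0.17 and −0.53). *Foxa2* passed the adjusted p in both gels (0.0499 and 0.00337 with edgeR) at a log2 fold change below 1, and *Sox17*, lower at 72 h, passed it in 1.5 mM gels (0.0372), where its embedding times overlapped. *Hhex* (0.49 and 0.62) was not called either. It was higher at 72 h without overlap in both gels and passed the adjusted p in 1.5 mM gels (0.0272 with edgeR). *Mesp1*, of nascent and cardiac mesoderm, was at 1.61 (SE 0.502) in 1.0 mM gels with an edgeR adjusted p of 0.0722, and at 0.46 (SE 0.396) in 1.5 mM gels.

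Among 14 antagonists and feedback inhibitors, 13 were tested and the 2 that were called both fell. *Dact2*, which promotes the degradation of Nodal receptors, had 9.87, 11.1 and 20.5 CPM at 72 h and 40.2, 51.8 and 58.6 CPM at 96 h in 1.0 mM gels (−1.86, SE 0.241, edgeR adjusted p = 0.00104), and was at −1.21 (SE 0.189, adjusted p = 0.00467) in 1.5 mM gels. *Pmepa1*, a TGF-β target that sequesters Smad2 and Smad3, was at −1.19 (SE 0.300, adjusted p = 0.0297) and −1.35 (SE 0.331, adjusted p = 0.0228), from 18 to 88 counts per library. *Bambi*, a pseudoreceptor, was at 0.97 (SE 0.134) in 1.0 mM and 0.25 (SE 0.189) in 1.5 mM gels, and the Smad inhibitor *Smad7* was at 0.74 (SE 0.190) and −0.11 (SE 0.243). Neither was called, although both passed the adjusted p in 1.0 mM gels (0.00144 and 0.0328 with edgeR). *Fst*, also not called, was lower at 72 h without overlap in 1.0 mM gels (−0.77, SE 0.159, edgeR adjusted p = 0.0121). In 1.5 mM gels *Fst* was at −0.07 (SE 0.149), with overlap. *Nomo1* (0.21 and 0.30) was not called and passed the adjusted p only in 1.5 mM gels (0.0316 with edgeR). Between gels, edgeR called 0 of the 36 genes tested at 72 h and at 96 h, with 5 and 8 of them at an unadjusted p below 0.05.

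**Figure D4:**
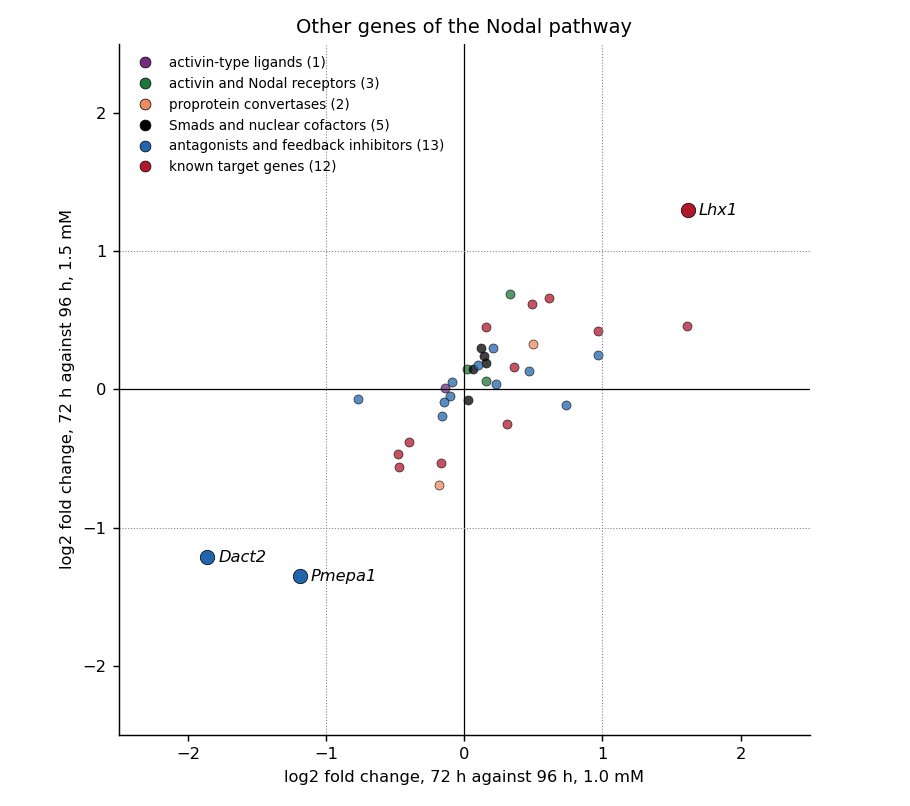
Log2 fold change of 72 h against 96 h for the 36 tested genes of the pathway, in 1.0 mM (horizontal axis) and 1.5 mM gels (vertical axis), colored by role; large labelled points are genes called in both gels. *Lhx1* is high in both gels, *Pmepa1* and *Dact2* are low in both, and receptors, convertases and Smads lie between the dotted lines at −1 and 1.

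Markers of cell types present in gastruloids also moved with embedding time. Over all genes tested, 2.61% were called higher and 1.69% lower at 72 h in 1.0 mM gels, and 1.61% and 1.57% in 1.5 mM gels. Of 11 pluripotency genes, 8 fell after embedding at 72 h in each gel: *Pou5f1*, *Nanog*, *Zfp42*, *Esrrb*, *Utf1*, *Dppa2*, *Dppa4* and *Dppa5a*, the last at a log2 fold change of −2.71 and −2.48. Their list summed to 46.0 to 60.6 CPM (1.0 mM) and 40.6 to 49.8 CPM (1.5 mM) at 72 h, against 147 to 200 and 115 to 138 CPM at 96 h, in the direction of *Nodal*, *Gdf3* and the *Lefty* genes. *Dppa2*, at a mean of 0.222 and 0.255 CPM at 72 h, passed the filter on low counts only through its 96 h libraries. Its calls therefore support nothing further. Of 8 cardiac and lateral plate mesoderm genes, 8 rose in 1.0 mM and 4 in 1.5 mM gels (*Gata4*, *Tbx20*, *Nkx2-5* and *Wnt2*). That list summed to 491 to 836 and 410 to 708 CPM at 72 h against 70.7 to 195 and 197 to 356 CPM at 96 h, in the direction of *Cfc1* and *Foxh1*. Of 6 somite genes, 6 fell in 1.0 mM and 3 in 1.5 mM gels (*Meox1*, *Meox2* and *Pax1*), from sums of 534 to 628 and 394 to 552 CPM at 96 h to 110 to 211 and 130 to 252 CPM at 72 h. Like the pluripotency list, the somite list thus moved in the direction of *Nodal*, *Gdf3* and the *Lefty* genes. Of 5 node and notochord genes, 2 rose in each gel, with *Shh* (1.37 and 1.46) in both, and the list summed to 104 to 153 CPM at 72 h and 56.0 to 89.5 CPM at 96 h. Like the cardiac list, it moved in the direction of *Cfc1* and *Foxh1*. Of 7 presomitic mesoderm and tail bud genes, 5 were tested, with a median log2 fold change of −0.52 and −0.27. *T* (Brachyury) rose in both gels (1.17 and 1.42), at a mean of 251 and 203 CPM at 72 h and 112 and 75.6 CPM at 96 h, and *Hes7*, of the segmentation clock, fell in 1.0 mM gels (−1.78) and was at −0.73, not called, in 1.5 mM gels. The 6 genes of visceral endoderm, another source of *Cer1* and *Lefty1* in the embryo, summed to 3.08 to 9.96 CPM (1.0 mM) and 1.09 to 3.38 CPM (1.5 mM) at 72 h and to 1.07 to 2.38 and 1.56 to 2.51 CPM at 96 h. *Ttr* rose in 1.0 mM gels (2.84, from a mean of 0.533 to 3.80 CPM), and *Afp* was at 0 in every library. The part of these cell types in the levels of the 8 genes was not tested.

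The genes most like each of the 8 across the 12 libraries were taken by Pearson's r of log2 CPM among 11343 genes averaging 100 counts or more, as a description. *Nodal*, *Gdf3* and *Lefty2* were below that mean and were left out. *Cfc1* was most like *Gata4* (r = 0.988), a transcription factor of heart and endoderm, *Smarcd3* (0.985), a chromatin-remodeling subunit of heart progenitors, and *Apoe* (0.978). *Lefty1* was most like *Boc* (0.984), a Hedgehog co-receptor, *Hoxa3* (0.979) and *Plch1* (0.979). *Foxh1* was most like the receptor kinase *Ephb1* (0.984), *Bmp7* (0.980) and *Foxd4* (0.979). *Cer1* was most like *Ints8* (0.947), *Ptges* (0.944) and *Gm7694* (0.936), and *Tdgf1* most like *Fosl2* (0.931), *Cmtm8* (0.930) and *Armcx1* (0.922). All libraries enter each value, so a gene that only separates the embedding times scores high.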

How the data were processed

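Poly-A RNA of 12 pools of gastruloids was sequenced with paired ends (75 bases) from stranded libraries. The authors trimmed the reads (cutadapt 4.4) and aligned them to mm10 with STAR 2.7.10b, per the submitters' processing notes, and deposited raw counts for 55141 genes. The strand setting of the counting is not given in the sources used here. The authors also deposited FPKM values for 55138 genes, computed with Cufflinks 2.2.1.3. A table of the authors' own DESeq2 fold changes and adjusted p-values was not used.

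Counts were scaled by TMM after genes with few reads had been removed (filterByExpr, minimum count 10 and minimum total 15), and were tested by quasi-likelihood (glmQLFTest) in edgeR 4.0.16 (R 4.3.3), on the 6 libraries of each pairwise comparison or, for the interaction, on all 12. The 36 mitochondrial genes were left out, after the study's methods. A call needs a Benjamini-Hochberg adjusted p below 0.05 over all genes and a log2 fold change beyond 1 in either direction. Positive values are higher at 72 h (time) or in 1.5 mM gels (concentration). Standard errors are the fold change divided by the square root of F. The procedure was tested on simulated data with a smaller spread beyond sampling noise than *Nodal*, *Cfc1*, *Cer1* or *Tdgf1* showed. *Gdf3* and both *Lefty* genes also exceeded that spread in some groups. That test therefore does not cover the calls of such genes. Alternatives were DESeq2 1.42.0, limma 3.58.1 (voom, or log2(FPKM + 0.1)), RLE scaling, no or a stricter filter (1 CPM in 3 libraries), mitochondrial genes kept, a single fit over all libraries, a replicate block, no fold-change threshold, and each library left out.

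The 8 genes and all gene lists (41 pathway genes and 9 lists of cell type markers) were chosen with earlier results of these data known. Every pathway gene called and every marker called in both gels is named; other pathway genes are named to give the values of their role, some of them chosen after their values were seen. A gene listed among the targets and a coding sequence are not reported here. Replicates of a group differed by more than sampling noise in all 12 pairs. Counting intervals cover counting error only, so precision rests on the spread between 3 libraries.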

Additional observations from a re-analysis of the deposited data

How the results depend on the processing

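Of 622 recomputed log2 fold changes of the 8 genes, 613 moved by less than the spread between replicates, 9 moved by more and 0 changed sign after a call. The counts of the 8 genes called between embedding times stayed within 1.5 times of 6 and 7 under all alternatives, and were 6 to 7 (1.0 mM) and 5 to 7 (1.5 mM) when single libraries were left out. Fold changes of *Lefty1*, *Lefty2*, *Nodal* and *Gdf3* rest on few counts at 72 h, which limits their precision.

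For all genes, limma on log2(FPKM + 0.1) called 346 between embedding times in 1.0 mM and 300 in 1.5 mM gels, and no fold-change threshold gave 1457 and 3033, against 678 and 498. Without single libraries the range was 429 (without replicate 3 of the 96 h group) to 703 in 1.0 mM gels, and 298 (without replicate 3 of the 96 h group) to 636 in 1.5 mM gels. With no fold-change threshold, 8 and 12 pathway genes were called, and without single libraries 2 to 6 (6 without replicate 3 of the 72 h group) and 2 to 3. Between gels at 72 h, DESeq2 called 4 genes in all, no low-count filter 56 and limma on FPKM 2, and leaving out single libraries 0. Between gels at 96 h, DESeq2 called 10, no low-count filter 65, limma on FPKM 2, and leave-one-out 0 to 12, the highest without replicate 3 of the 1.5 mM group and 2 without its replicate 1. Of the 8 genes, DESeq2, no low-count filter and the fit without that replicate 3 each called 1 at 96 h (leave-one-out 0 to 1). A single pathway gene (1) was called there with no low-count filter and without that replicate 3 (leave-one-out 0 to 1). The interaction called 112 genes in all and 2 of the 8 with no low-count filter, and 4 in all by limma on FPKM. The cause of these differences was not tested.

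Libraries with the same replicate number correlated in their deviations from the group means at r = 0.04 to 0.30, and those with different numbers at −0.24 to 0.11. In 22 of 24 cases a library correlated best with its own number in the other group, which is a hint from the data, but not every pair exceeded 0.1 and the labels tie the numbers to no shared culture, so the fit without a replicate block was kept. With the replicate block, 16 genes were called between gels at 72 h, 51 at 96 h and 4 in the interaction. Of the 8 genes, 2 were called at 96 h (*Lefty1*, lower in 1.5 mM gels, and *Cfc1*, higher), as was 1 pathway gene. Between embedding times the block gave 6 and 7 of the 8 genes, 4 and 3 pathway genes, and 757 and 543 genes in all.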

Other observations

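Of 6 germ-cell genes, 5 were tested in 1.0 mM gels, where 1 was higher and 2 were lower at 72 h, and 4 in 1.5 mM gels, where 1 was lower. *Tfap2c*, which with *Prdm1* and *Prdm14* specifies germ cells, fell in both gels (log2 fold change −1.75 in 1.0 mM gels, edgeR adjusted p = 0.00191), whereas *Prdm1*, also expressed in endoderm and axial mesoderm, rose in 1.0 mM gels from a mean of 40.7 to 81.4 CPM (edgeR adjusted p = 0.00104). Of 6 definitive endoderm and gut genes, 1 rose in 1.0 mM gels (*Krt8*, 1.21) and 0 in 1.5 mM gels. In 1.5 mM gels 4 of the 6 had an unadjusted p below 0.05 with edgeR, as had 5510 of all 15683 genes tested. Of 5 neural tube genes, 1 rose and 1 fell in 1.0 mM gels (*Pax6*, 1.24, and *Olig2*, −5.23, from under 1 CPM), and 0 of the 4 tested in 1.5 mM gels were called with edgeR, where 1 had an unadjusted p below 0.05. *Olig2* was too low to be tested there, at a mean of 0.0148 CPM at 72 h and 0.70 CPM at 96 h, without overlap. In 1.0 mM gels it passed the filter on low counts only through its 96 h libraries, so that call supports nothing further.

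*Tdgf1* was the highest in the library numbered 1 and the lowest in the library numbered 3 in all 4 groups, a pattern seen only after the values were known. With a replicate block its log2 fold change of 72 h against 96 h was 0.75 in 1.0 mM and 0.67 in 1.5 mM gels, against 0.83 and 0.66 without it, and it was not called.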
